A study of Mus musculus with 4 samples.

Results

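The genes that make, sense, move and export cholesterol were examined at the surface of the fetal mouse liver, with and without p57. A list of 32 genes of cholesterol synthesis, sterol sensing, uptake and intracellular handling, and export was matched to the array by gene symbol. A member was kept if a probe set carried its symbol as the only one and was called Present, that is detected, on at least 2 of the 4 arrays. This left 29 genes with 54 probe sets, among 11656 genes and 22800 probe sets tested in all. Acat2 and Soat1 were matched to no probe set and were not analysed here. Abcg5, which with Abcg8 forms the sterol transporter of the bile and gut surface, was called Present on 1 array, with signals between 75.5 and 106, and was not tested. Of the 63 probe sets of the members, 9 were not tested, and 8 of these belonged to genes that had another, tested probe set.

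Mesothelium, the sheet of cells over the liver, and the cells just under it had been dissected from C57BL/6 embryos at embryonic day 17.5. There were 2 samples without p57 (p57-/-, labelled Kip2 -/-, a name of the gene Cdkn1c) and 2 wild-type samples (p57+/+), with no other allele or agent named in the labels. The titles place 1 sample of each genotype in experiment 1 and 1 of each in experiment 2, and these numbers serve here as replicate numbers. The labels give neither single embryos nor pools, so the p-values reflect only how these samples vary, and part of that may be technical.

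Between 48.5% and 50.1% of the probe sets were called Present per array, with a highest signal between 61857 and 74260. Cdkn1c, which encodes p57, gave 10255 and 9866 in p57+/+ against 7.79 and 7.28 in p57-/-. Its calls were Absent without p57, and it was at least 760-fold lower by the lowest signals called Present (limma adjusted p = 1.80e-08). Xist, the RNA that coats the inactive X chromosome, gave 12199 in p57+/+ replicate 1 and 86.7 in p57+/+ replicate 2, and 7889 and 6412 in p57-/-. The Y-linked gene Eif2s3y gave 2.56 (Absent) and 1734 in p57+/+ against 966 and 904 in p57-/-, so each p57-/- sample held transcripts of both kinds. Wt1 and Upk3b of mesothelium were Present on all 4 arrays, and so were 9 of 10 hepatocyte, 8 of 10 erythroid and 9 of 9 macrophage marker genes. Fewer cells of a type and less RNA per cell cannot be told apart in such mixed samples.

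Cells build cholesterol from acetyl-CoA through mevalonate, isoprenoids and squalene, and then convert lanosterol to cholesterol in the endoplasmic reticulum. When sterols are scarce, SCAP carries SREBP-2, the product of Srebf2, to the Golgi, where it is cleaved into a transcription factor for the synthesis enzymes. INSIG proteins hold that complex back when sterols are plentiful, and excess sterol activates LXR, which turns on the export transporters. Fetal mouse tissues make much of their cholesterol themselves.

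No member passed the test. Of the 54 member probe sets, 0 had an adjusted p under 0.05 in limma, beside 0.00439% of all probe sets. At an unadjusted p under 0.05, 11 member probe sets were lower in p57-/- and 0 higher, while the shares over all probe sets were 3.75% lower and 3.93% higher. In both directions together this is 20.4% of the member probe sets beside 7.67% of all. The excess was not stable when single samples were left out. It was absent without p57+/+ replicate 2 and without p57-/- replicate 1. It remained without p57+/+ replicate 1 and without p57-/- replicate 2. Each of these fits leaves 1 sample in a genotype, which limits what it can show. The log2 changes given below are p57-/- minus p57+/+, and the signal is on the arrays' linear scale, which does not allow levels of different genes to be compared. For a gene with several tested probe sets the brightest is given unless stated. In every pair of signals, experiment 1 comes first.

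More synthesis genes were lower than higher in p57-/-, and none passed. Of 19 synthesis genes tested, 14 were lower in each experiment and 1 was higher in each, where 26.7% and 29.6% of all genes were. In 9 of the 19 both p57-/- signals lay below both p57+/+ signals, and in 0 above, against 19.0% and 21.7% of all genes. The median log2 change was -0.24, with -0.31 in experiment 1 and -0.18 in experiment 2, beside 0.02 over all genes. In experiment 1, 18 of the 19 were lower (46.3% of all genes), and in experiment 2, 14 were (50.8%). The p57-/- sample of experiment 1 was below both p57+/+ samples for 16 of the 19 (35.1% of all genes), and that of experiment 2 for 9 (33.2%).

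**Figure D1:**
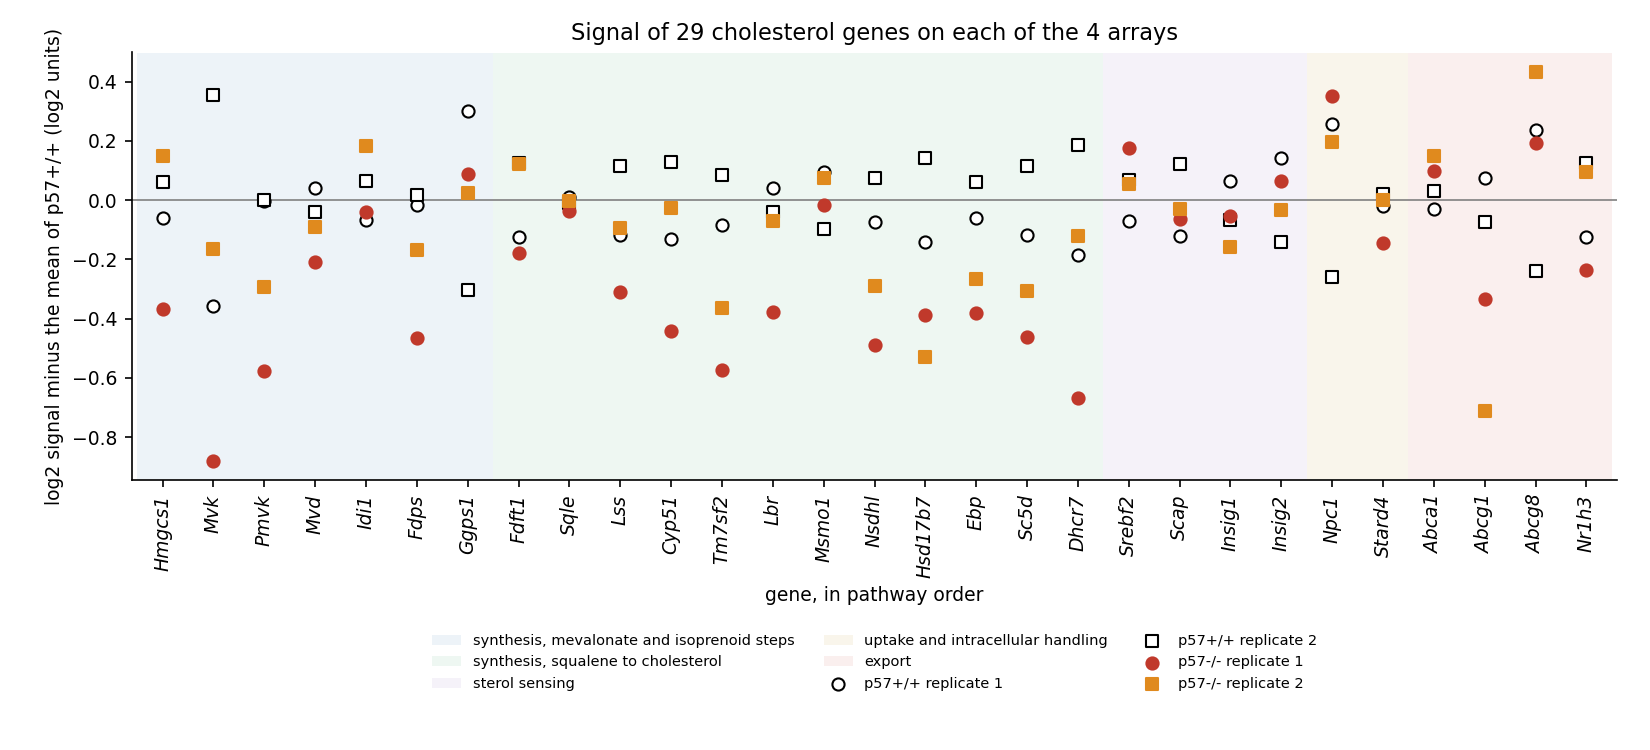
Signals of the 29 tested cholesterol genes on the 4 arrays, as log2 signal minus the mean log2 signal of the 2 p57+/+ samples. Genes are in pathway order along the horizontal axis with shaded role groups, open symbols are p57+/+ and filled symbols p57-/-. Both filled symbols lie under both open symbols for 9 synthesis genes, among them Tm7sf2, Nsdhl, Ebp and Sc5d, while Sqle stays within 0.05 of the line on all arrays.

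Among the enzymes that lead from acetyl-CoA to farnesyl and geranylgeranyl pyrophosphate, 7 of 8 were tested, and their median log2 change was -0.15 (-0.31 in experiment 1 and -0.05 in experiment 2). That median was -0.09 without p57-/- replicate 1 and -0.37 without p57-/- replicate 2. Pmvk, which encodes the kinase that adds the second phosphate to mevalonate, gave 1635 and 1639 in p57+/+ against 1097 and 1335 in p57-/-. The p57+/+ samples were nearly equal and both p57-/- samples were lower. The log2 change was -0.44 (SE 0.15, adjusted p = 0.574). Mvk, the mevalonate kinase acting just before it, gave 464 and 761 in p57+/+ against 323 and 530 in p57-/-. The groups overlapped, since the p57-/- signal of experiment 2 was above the p57+/+ signal of experiment 1, yet the differences within the experiments were alike, at -0.52 in each. The fitted change was -0.52 (SE 0.29, adjusted p = 0.688), and it ran from -0.88 without p57-/- replicate 2 to -0.16 without p57-/- replicate 1. Fdps, the farnesyl pyrophosphate synthase, gave 11138 and 11401 against 8155 and 10035, a log2 change of -0.32 (SE 0.13), with no overlap. It was -0.17 without p57-/- replicate 1 and -0.47 without p57-/- replicate 2.

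Hmgcs1, which encodes the cytosolic synthase that makes HMG-CoA and is a classic SREBP target, did not separate the genotypes. The brightest of its probe sets read 25199 and 27439 in p57+/+ against 20381 and 29168 in p57-/-, so the p57-/- samples held both the lowest and the highest signal. The log2 change was -0.11 (SE 0.16, adjusted p = 0.894), with a 95% interval from -0.47 to 0.25, and it was 0.15 without p57-/- replicate 1. The other 4 tested probe sets of Hmgcs1 were between -0.22 and 0.39, and the one at 0.39 was dim, at 122 to 169. Idi1, the isomerase of the C5 isoprenoid units, was the only synthesis gene higher in both experiments, at 0.03 and 0.12, with a fitted change of 0.07 (SE 0.12). Mvd, the decarboxylase that yields isopentenyl pyrophosphate, was at -0.15 (SE 0.15). Ggps1, which makes geranylgeranyl pyrophosphate for protein prenylation, was at -0.21 in experiment 1 and 0.32 in experiment 2, and its 4 probe sets lay on both sides of 0, from -0.25 to 0.20.

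All 12 enzymes from squalene to cholesterol were tested. Of these 10 were lower and 0 higher in both experiments, where 26.7% and 29.6% of all genes were. Their median log2 change was -0.28 (-0.32 in experiment 1 and -0.26 in experiment 2). That median was -0.11 without p57-/- replicate 1 and -0.39 without p57-/- replicate 2, and it stayed below 0 without any 1 sample. Tm7sf2, which encodes a sterol C14-reductase, had the lowest p of all member probe sets. It gave 3787 and 4262 in p57+/+ against 2701 and 3122 in p57-/-. Both p57-/- signals lay below both wild-type ones, and the differences within the experiments were -0.49 and -0.45. The log2 change was -0.47 (SE 0.13, limma adjusted p = 0.549), which is 1.38-fold lower.

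Nsdhl and Ebp are both X-linked genes. Nsdhl, the C4 sterol dehydrogenase, gave 3687 and 4086 in p57+/+ against 2767 and 3176 in p57-/-, for a log2 change of -0.39 (SE 0.13). Ebp, the sterol isomerase that binds emopamil, gave 7061 and 7689 against 5652 and 6129, a log2 change of -0.32 (SE 0.12). The groups did not overlap for either gene. The differences in experiments 1 and 2 were -0.41 and -0.36 for Nsdhl and -0.32 and -0.33 for Ebp, each from 1 array per genotype. The samples differed in Xist and Y-linked signals, and the part of sex in these differences was not tested. Sc5d, the lathosterol desaturase, gave 6661 and 7828 against 5239 and 5837, a log2 change of -0.38 (SE 0.13), again with no overlap. A dimmer Sc5d probe set was at -0.67 (SE 0.22), and the third, called Absent on both arrays of experiment 2, was at 1.39 (SE 0.96). Dhcr7, the reductase that turns 7-dehydrocholesterol into cholesterol, gave 2976 and 3853 against 2132 and 3112. Its groups overlapped, and the log2 change was -0.39 (SE 0.19, adjusted p = 0.653). It ran from -0.67 without p57-/- replicate 2 to -0.12 without p57-/- replicate 1.

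Of the other enzymes of this stretch, some differed little, some were lower with every tested probe set, and some differed between probe sets. Fdft1, the squalene synthase that commits farnesyl pyrophosphate to sterols, gave 10751 and 12771 in p57+/+ against 10356 and 12762 in p57-/-, for a log2 change of -0.03 (SE 0.14), which was 0.12 without p57-/- replicate 1 and 0.10 without p57+/+ replicate 2. Sqle, the squalene epoxidase and a rate-limiting step, gave 5784 and 5705 against 5603 and 5728, all 4 within a narrow band. Its log2 change was -0.02 (SE 0.11), with a 95% interval from -0.27 to 0.23. The fitted change of Tm7sf2, a gene picked for its lowest p, lay outside that interval. The 95% interval of Tm7sf2, from -0.77 to -0.17, overlapped that of Sqle, and these genes were not tested against each other. Msmo1, the C4 methyl sterol oxidase, was at 0.03 (SE 0.12). Lss, the cyclase that forms lanosterol, was lower with all 3 probe sets, at -0.20, -0.36 and -0.50, and Cyp51, the lanosterol demethylase, with both tested ones, at -0.24 and -0.22. Lbr, a nuclear membrane protein with the same C14-reductase activity as Tm7sf2, was at -0.42 in experiment 1 and -0.03 in experiment 2. Hsd17b7, the C3 sterol ketoreductase, was at -0.46 (SE 0.15) with its brightest probe set. That probe set is of a design that can bind related transcripts, as are the brightest ones of Hmgcs1, Fdft1 and Lss. The other 3 of Hsd17b7 were at -0.70, -0.25 and 0.23, so its direction was not the same in all.

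**Figure D2:**
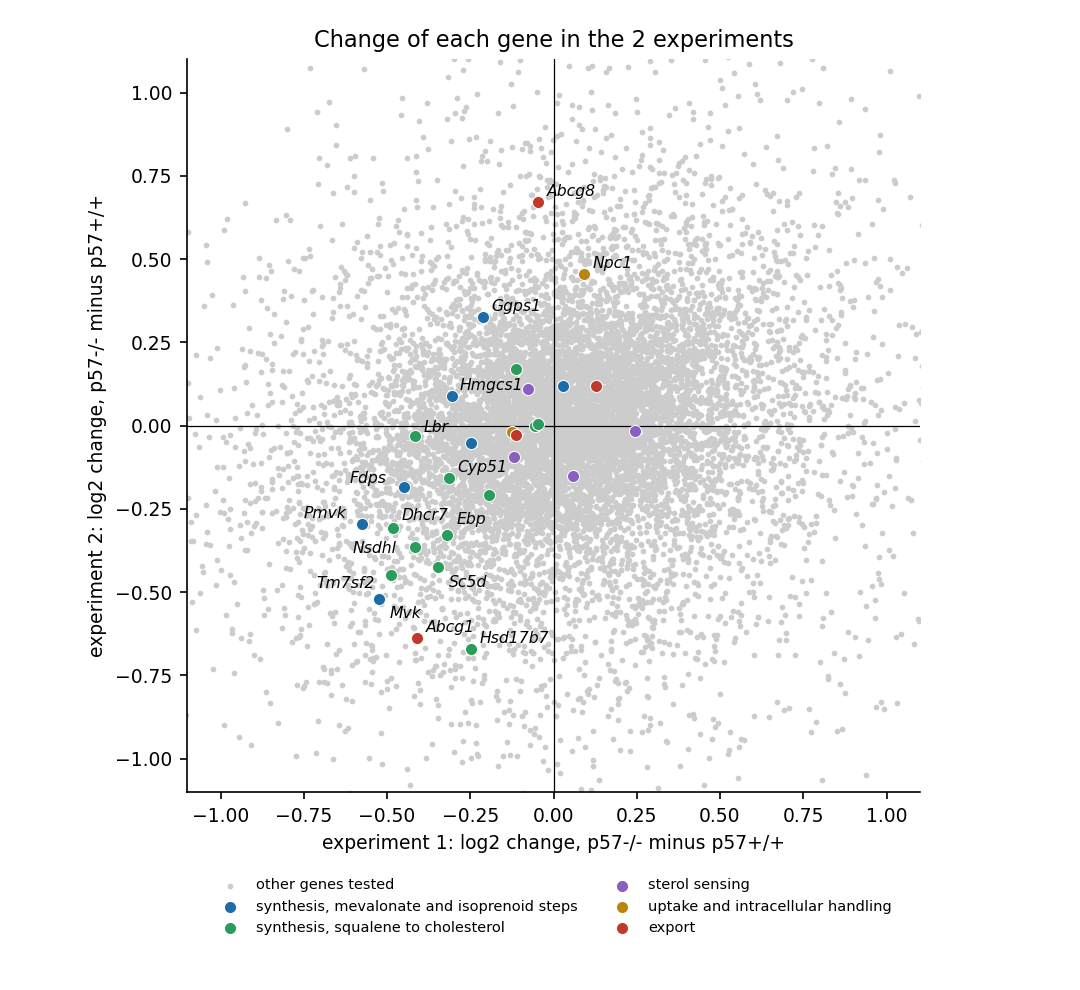
Log2 change of each gene in experiment 1 (horizontal) and experiment 2 (vertical), with 1 array per genotype in each. Coloured points are the 29 cholesterol genes by role, grey points the other genes tested, of which 513 lie beyond the axes at 1.1. Synthesis genes gather at the lower left, where Mvk is at -0.52 in both experiments and Pmvk at -0.58 and -0.30.

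A limit of 0.25 log2 in both experiments, chosen after the values were seen, described the size of these differences. It was passed downward by 7 of the 19 synthesis genes and upward by 0, where 6.37% and 6.84% of all genes passed it. The 7 were Mvk, Pmvk, Tm7sf2, Nsdhl, Ebp, Sc5d and Dhcr7. Pmvk, at -0.30 in experiment 2, lay just inside it, and Hsd17b7, at -0.247 in experiment 1, just outside.

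Promoter sequences of 5 of these genes and of Hmgcs1, whose signal overlapped between the genotypes, are shown as examples. Each line holds a box described below, and its presence in the lines shown is not a result. Pmvk and Dhcr7 are not shown. They have several windows, and some of these lack the box. RefSeq windows of the GRCm38.p6 build were found for 26 of the 32 members, not for Fdps, Fdft1, Sqle, Npc1, Stard4 and Abcg1. Each line gives the 250 bases before the annotated start, 5′ to 3′ on the gene's strand. Capitals mark CCAAT or its reverse complement ATTGG, the box bound by NF-Y, and in Hmgcs1 also TCACCCCAC, a match to the sterol regulatory element TCACNCCAC. Hmgcs1 lies at chr13:119690101-119690350 and Mvk at chr5:114444019-114444268, both on the + strand. Nsdhl lies at chrX:72918271-72918520 on the + strand. Tm7sf2 lies at chr19:6067851-6068100, Ebp at chrX:8193513-8193762 and Sc5d at chr9:42264301-42264550, all on the - strand.
Hmgcs1: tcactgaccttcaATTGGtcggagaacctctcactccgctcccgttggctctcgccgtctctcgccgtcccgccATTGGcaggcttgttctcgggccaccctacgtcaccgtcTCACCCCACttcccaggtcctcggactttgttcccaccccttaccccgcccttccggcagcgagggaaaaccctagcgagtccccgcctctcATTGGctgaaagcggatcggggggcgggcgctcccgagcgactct
Mvk: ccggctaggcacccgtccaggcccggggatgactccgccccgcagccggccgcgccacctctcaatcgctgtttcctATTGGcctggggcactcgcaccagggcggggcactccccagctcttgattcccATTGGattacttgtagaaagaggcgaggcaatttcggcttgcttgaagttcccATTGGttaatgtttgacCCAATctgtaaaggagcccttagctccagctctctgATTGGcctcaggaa
Tm7sf2: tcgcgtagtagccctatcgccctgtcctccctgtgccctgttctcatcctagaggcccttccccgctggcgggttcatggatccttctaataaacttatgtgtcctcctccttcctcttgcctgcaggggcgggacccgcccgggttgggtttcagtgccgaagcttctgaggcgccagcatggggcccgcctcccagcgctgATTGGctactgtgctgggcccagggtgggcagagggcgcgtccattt
Nsdhl: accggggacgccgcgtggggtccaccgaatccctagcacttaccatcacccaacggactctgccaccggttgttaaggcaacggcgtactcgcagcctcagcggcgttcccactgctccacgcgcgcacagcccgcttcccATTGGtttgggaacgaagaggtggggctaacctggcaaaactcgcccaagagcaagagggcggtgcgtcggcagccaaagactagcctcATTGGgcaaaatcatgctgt
Ebp: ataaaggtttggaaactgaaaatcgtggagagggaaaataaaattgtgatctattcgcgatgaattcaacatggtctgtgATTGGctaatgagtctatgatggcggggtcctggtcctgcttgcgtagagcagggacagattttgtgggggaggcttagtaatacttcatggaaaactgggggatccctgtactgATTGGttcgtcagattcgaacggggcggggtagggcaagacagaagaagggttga
Sc5d: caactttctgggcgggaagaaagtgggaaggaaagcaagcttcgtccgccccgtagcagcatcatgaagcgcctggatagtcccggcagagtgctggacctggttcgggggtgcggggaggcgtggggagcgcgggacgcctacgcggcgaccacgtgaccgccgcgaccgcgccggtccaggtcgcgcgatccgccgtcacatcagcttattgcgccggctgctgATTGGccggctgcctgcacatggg
The box CCAAT was searched on both strands of these 250 bases. A gene with several windows was counted if at least 1 held the box. It occurred for 16 of 17 synthesis genes with a window, the exception being Acat2, and for 5 of the 9 other members. The share was 37.5% of all genes with a window, whether tested on the arrays or not. It occurred more than once in 11 of the 17, against 11.5% of all genes. Mvk held 5 boxes, Hmgcs1 3, Nsdhl and Ebp 2 each, and Tm7sf2 and Sc5d 1 each. The Sp1 box GGGCGG was found in 15 of the 17 and in 5 of the 9 other members (35.4% of all genes). The sterol element TCACNCCAC was found only in Hmgcs1 among the 26 members (1.22% of all genes), and the DR4 element bound by LXR, AGGTCA repeated after NNNN, in 0 of them (0.0148% of all genes). These letters describe the windows and do not show binding. Only exact matches to the letters given were counted, so an element that departs from them would be missed. CCAAT was also present for Hmgcs1, Idi1, Ggps1 and Msmo1, whose brightest probe sets were not lower in both experiments.

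None of the 4 sterol sensing genes passed, and the genotypes overlapped for the brightest probe set of each. All 4 were tested, with a median log2 change of -0.02 and a range from -0.11 to 0.12. Srebf2, which encodes SREBP-2, gave 665 and 732 in p57+/+ against 789 and 724 in p57-/-, for a log2 change of 0.12 (SE 0.16, adjusted p = 0.886), while its dimmer probe set was at -0.11 (SE 0.22). Insig1, which is itself a target of SREBP-2, gave 5431 and 4961 against 5005 and 4651. Its groups overlapped, and the log2 change was -0.11 (SE 0.12), with a 95% interval from -0.37 to 0.16. Insig2, its relative, gave 763 and 627 against 723 and 677, a log2 change of 0.02 (SE 0.17), which was -0.03 without p57-/- replicate 1 and -0.13 without p57+/+ replicate 2. The other 2 probe sets of Insig2 were at 0.28 and 0.12, the first of them with both p57-/- signals above both p57+/+ signals. Scap, the escort of SREBP-2, was at -0.05 (SE 0.13).

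Of the genes of uptake and intracellular handling, Npc1 and Stard4 were tested. Npc1, the membrane protein that lets cholesterol from endocytosed lipoproteins leave the lysosome, gave 653 and 456 in p57+/+ against 696 and 625 in p57-/-. One wild-type sample was the lowest and the other lay between the p57-/- samples. The log2 change was 0.27 (SE 0.20, adjusted p = 0.762), from 0.09 in experiment 1 and 0.45 in experiment 2, and it was 0.02 without p57+/+ replicate 2. Stard4, a soluble sterol carrier and a target of SREBP-2, gave 3388 and 3480 against 3106 and 3436, a log2 change of -0.07 (SE 0.12), and its other 2 probe sets were at 0.04 and -0.00.

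The 4 export genes tested did not share a direction, and their median log2 change was 0.03. The sign of that median was not stable, at -0.069 without p57-/- replicate 2, -0.050 without p57+/+ replicate 1 and 0.12 without p57-/- replicate 1, and -0.070 with Abcg5 included by dropping the filter on calls. Abcg1, the transporter that passes cholesterol to mature HDL particles, gave 879 and 793 in p57+/+ against 662 and 510 in p57-/-, with no overlap. The log2 change was -0.52 (SE 0.18, adjusted p = 0.578), from -0.41 in experiment 1 and -0.64 in experiment 2, close in size to that of Mvk. It ran from -0.71 without p57-/- replicate 1 to -0.33 without p57-/- replicate 2. Its other probe set was Present on 1 array and was not tested. Abca1, the transporter that loads cholesterol onto apolipoprotein A-I, gave 14844 and 15480 against 16232 and 16823. Both p57-/- signals lay above both wild-type ones, the only member whose brightest probe set did so. The log2 change was 0.12 (SE 0.10, adjusted p = 0.789). The other 2 probe sets of Abca1 were dimmer, at 0.03 and 0.13, and both were higher in experiment 1 and lower in experiment 2. Nr1h3, which encodes the sterol receptor LXR-alpha that drives these transporters, gave 257 and 305 against 238 and 300, a log2 change of -0.07 (SE 0.22). Abcg8 was at -0.05 in experiment 1 and 0.67 in experiment 2, at signals of 163 to 260.

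**Figure D3:**
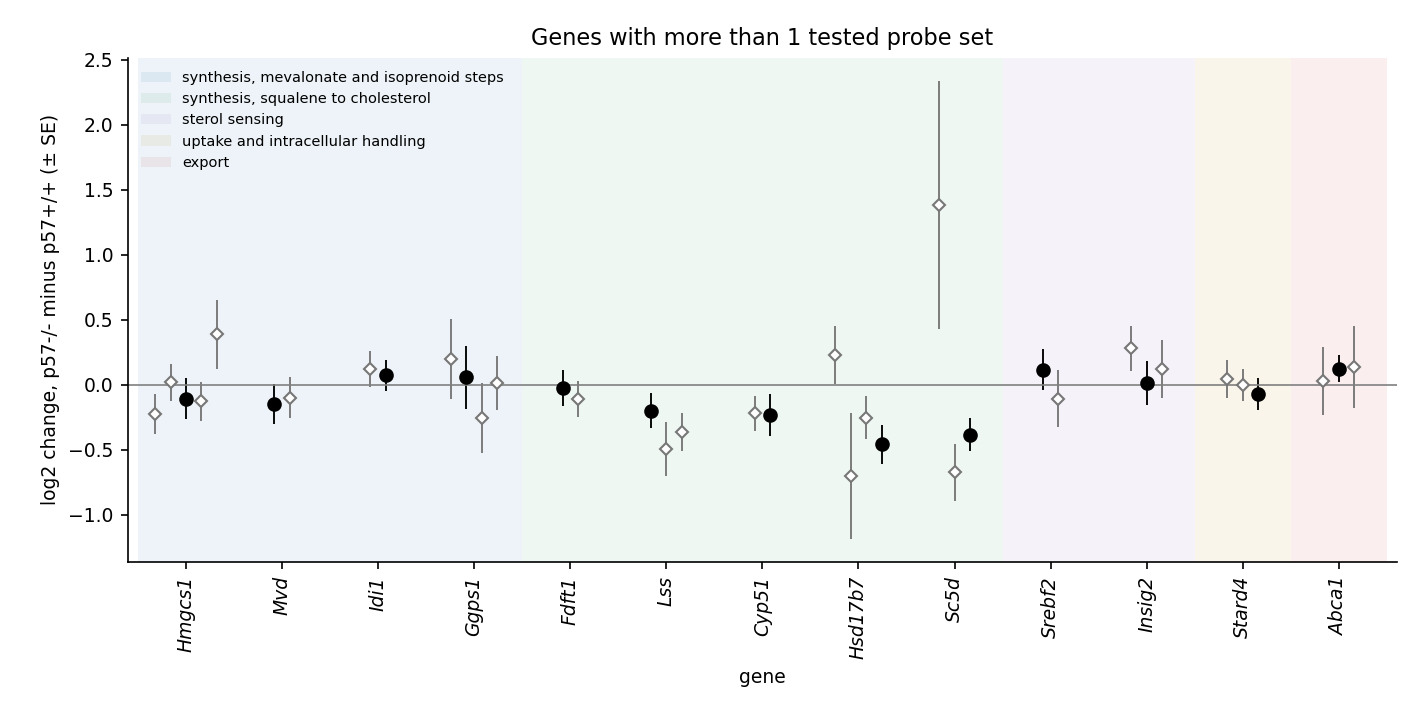
Log2 change with its SE for every tested probe set of the 13 cholesterol genes that have more than 1. Filled circles are the brightest probe set of each gene and open diamonds the others. All tested probe sets of Mvd, Fdft1, Lss and Cyp51 lie under 0, and all of Idi1, Insig2 and Abca1 over 0. Those of Hmgcs1, Ggps1, Hsd17b7, Sc5d, Srebf2 and Stard4 lie on both sides.

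Beyond these members, 54 further genes of the sterol pathway were listed, of which 43 were tested. None passed, with 0 of 76 probe sets called in limma, beside 0.00439% of all probe sets. At an unadjusted p under 0.05 in limma were 9 of the 76, beside 7.67% of all. Among the 43 genes 10 were lower and 18 higher in both experiments, where 26.7% and 29.6% of all genes were. Their median change on the log2 scale was 0.05. The lowest p-values were those of Cyb5r3 and Cyp39a1. Cyb5r3, the cytochrome b5 reductase that supplies electrons to sterol oxidation steps, gave 5116 and 5897 in p57+/+ against 3450 and 4386 in p57-/-, for a log2 change of -0.50 (SE 0.15, adjusted p = 0.549). Cyp39a1, an oxysterol hydroxylase, gave 2041 and 2471 against 5096 and 2837, a log2 change of 0.76 (SE 0.24, adjusted p = 0.549), most of it from experiment 1, at 1.32 against 0.20. Without p57-/- replicate 2, which leaves replicate 1 alone in p57-/-, the log2 change of Cyp39a1 was 1.18. The sterol hydroxylase Cyp27a1 gave 763 and 664 in p57+/+ against 1420 and 574 in p57-/-. Its log2 change was 0.34 in the fit on all samples, from 0.90 in experiment 1 and -0.21 in experiment 2.

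Markers of other cells were set beside the synthesis genes. All 8 tested of 10 erythroid genes were lower in both experiments, where 26.7% of all genes were. Their median was -0.51 (-0.71 in experiment 1 and -0.26 in experiment 2). Their summed signals were 102275 and 107864 in p57+/+ against 68998 and 91946 in p57-/-. The 19 synthesis genes summed to 122190 and 132050 in p57+/+ against 101592 and 124663 in p57-/-, and here the genotypes overlapped. The lowest sample in the erythroid and in the synthesis sum was p57-/- replicate 1. Such sums weigh the brightest probe sets most. The 9 hepatocyte genes tested had a median of 0.06 (0.22 and -0.15 by experiment), and sums of 375345 and 452947 against 435902 and 411726, which overlapped. The highest signal of every array was that of Apoa1 or Ttr, which are among these genes. Whether signals that high still follow the amount of RNA was not tested, so a difference in hepatocyte content could be missed. The 10 mesothelial markers had a median of -0.03 but went both ways. Of these 4 were higher in both experiments by over 0.25, beside 6.84% of all genes, namely Wt1 at 0.64, Bnc1 at 0.60, Alcam at 0.39 and Gpm6a at 0.35. Another 2 were lower by over 0.25, beside 6.37% of all genes, namely Krt8 at -0.32 and Msln at -0.27. None of them passed the adjusted threshold. The median was 0.25 over 9 mesenchymal and stellate genes, 0.05 over 9 macrophage genes and 0.09 over 8 granulocyte genes. In both experiments 7 mesenchymal and stellate genes were higher and 1 lower, 2 macrophage genes higher and 2 lower, and 6 granulocyte genes higher and 0 lower. Over all genes 29.6% were higher and 26.7% lower. Of 6 adrenal cortex genes only Hsd3b1 was tested, and Star, Cyp11a1, Cyp21a1, Cyp11b1 and Mc2r were Present on fewer than 2 arrays. The part of the erythroid and other cells in the lower synthesis signals was not tested.

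**Figure D4:**
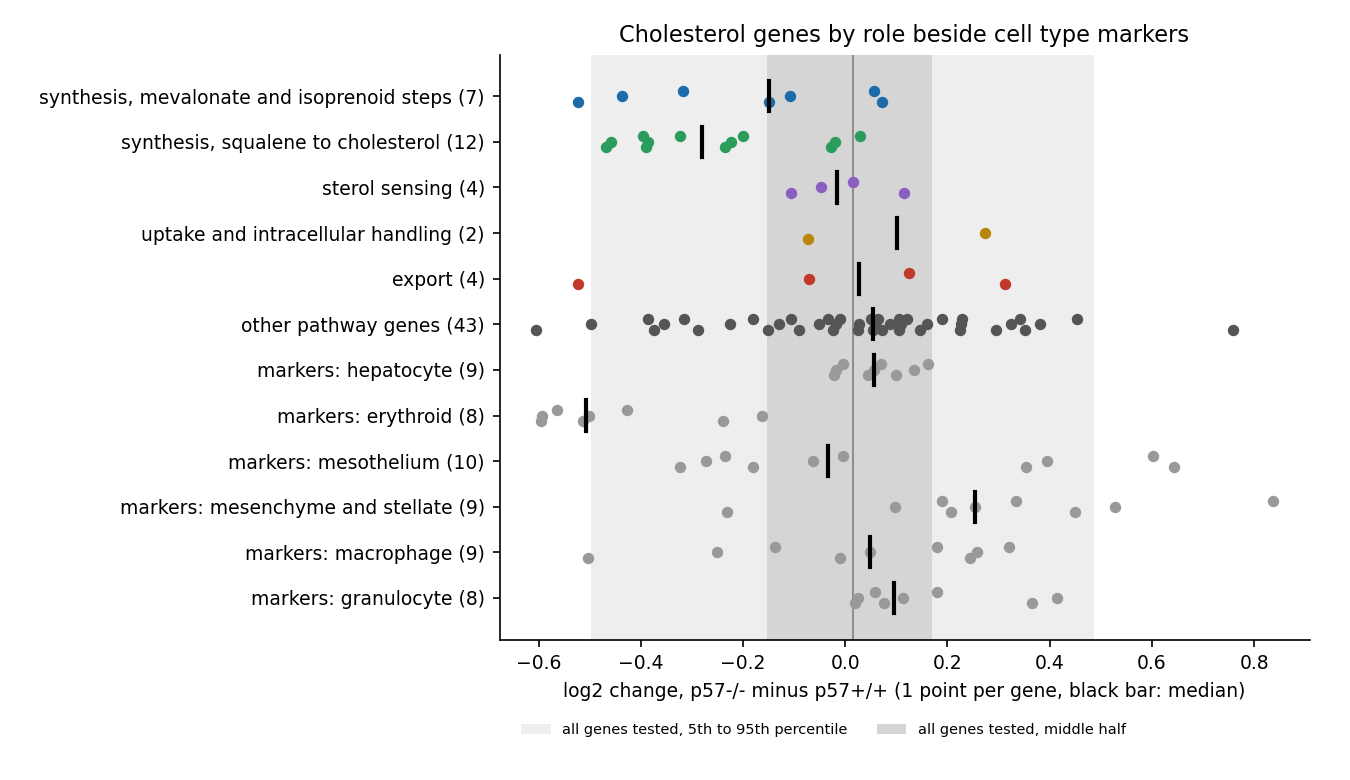
Fitted log2 change of each cholesterol gene by role, of the other pathway genes and of cell type markers, 1 point per gene with the median as a black bar and the number of genes in parentheses. The light and dark bands span the 5th to 95th and 25th to 75th percentiles of all genes tested, from -0.50 to 0.49 and from -0.15 to 0.17. The bands describe single genes and are no test of a group's median, which is -0.28 for squalene to cholesterol and -0.51 for erythroid markers.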

How the data were processed

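RNA from 4 samples, 2 per genotype, was labelled from 250 ng with a kit primed at the 3' end and read on 1 Affymetrix array each, per the labels' protocols. The authors deposited the MAS5 signal intensity of 45101 probe sets, on a linear scale, with a detection p-value and call per probe set, per the file headers. The signals were scaled, and their trimmed mean, calculated here with 2% cut at each end, was 500.003 on every array. No MAS5 version is stated in the labels or headers used here. Scaling hides changes of total RNA, and the number of arrays limits the precision. The series value table held the same signals.

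Signals were log2 transformed without further normalization. Controls (64) were left out, and probe sets Present on at least 2 of 4 arrays were tested with limma 3.58.1 in R 4.3.3 (eBayes with a variance trend, no block, two-sided, Benjamini-Hochberg over 22800 probe sets, threshold 0.05). The procedure was tested on simulated data, with changes much larger than that of any member. That simulation does not show whether changes of the members' size could be called. Intervals are 95% intervals from that fit. The intervals were added after the values were seen. Differences within an experiment set 1 array against 1 and have no test. A gene was represented by its brightest tested probe set, by mean log2 signal. Symbols came from the platform annotation (34945 probe sets with 1 symbol, 932 with several, 9160 with none). Promoter windows came from RefSeq, GRCm38.p6.

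The members and lists were chosen with earlier results of these data known. Signals on every array are given for the member of lowest p and of largest change in each role group and for anchor genes of each role. The further values, those of Fdps, Nsdhl, Ebp, Sc5d and Dhcr7, were chosen after they were seen, as was Cyp27a1. Of other pathway genes, the 2 of lowest p are named. Alternatives were a block, no trend, a pseudocount of 16, other detection filters, quantile normalization, other probe set choices (2 of them chosen after seeing the data) and leaving out each sample.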

Additional observations from a re-analysis of the deposited data

How the results depend on the processing

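In every alternative tried, 0 member probe sets passed, and the number at an unadjusted p under 0.05 ran from 6 of 54 without the variance trend (11.1%, beside 6.45% of all probe sets) to 13 with the block (24.1%, beside 9.27%). Without 1 sample it ran from 1 (1.85%, beside 5.09%) without p57+/+ replicate 2 to 17 (31.5%, beside 12.6%) without p57-/- replicate 2. Over all tested probe sets, limma called 1. With the replicate block it called 30, with Tm7sf2 at an adjusted p of 0.209. Among probe sets Present on all 4 arrays it called 0, with 1573 at an unadjusted p under 0.05, since that filter removes Cdkn1c. Leaving out 1 sample gave 5 to 221, the highest without p57-/- replicate 2, and 0 to 2 among the other pathway genes. Where a genotype had 1 sample left, it was taken to vary like the other. Over all 22800 probe sets, same-numbered samples did not deviate together (r = 0.00460), so there the block rests on the number alone. No such r was calculated for the members alone. The summed signal of the 19 synthesis genes was higher in experiment 2 for both genotypes. This sum went from 122190 to 132050 with p57, and without it from 101592 to 124663. Whether the members share an effect of the experiment cannot be examined further with 2 pairs. The median of the mevalonate group ran from -0.37 to -0.091 without 1 sample, that of the squalene to cholesterol group from -0.39 to -0.11, that of sterol sensing from -0.03 to 0.01, that of handling from -0.02 to 0.22 and that of export from -0.069 to 0.12. The export median was -0.070 without a filter on calls, which adds Abcg5. The count of members lower in both experiments was 18 of 29, beside 26.7% of all genes. It was 16 to 19 under the scaling, filter and probe set alternatives, 2 of which were chosen after seeing the data. Of 84 values of the 14 members given in full by the rule, from the settings that can move a log2 change, 76 kept their sign and 8 did not, all 8 without 1 sample. These were in Fdft1 (range -0.18 to 0.12), Hmgcs1 (-0.37 to 0.15), Insig2 (-0.13 to 0.16), Nr1h3 (-0.24 to 0.10) and Stard4 (-0.14 to 0.000784). The cause was not tested.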
